A study of Mus musculus with 16 samples.

Results

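A set of 36 genes of the extracellular matrix and of hepatic stellate cells, given as a list of symbols, were followed in mouse liver RNA. All 36 were found by symbol among 78317 listed genes, of which 51487 had a symbol, and all 36 were among the 14781 genes with enough counts to test. The mice were wild type C57BL/6J of both sexes, obtained at 6 weeks of age and fed for 10 weeks. The normal diet was LabDiet 5053, with 4.5% of calories from fat, and the high fat diet was Research Diets D12492, with 60% from fat. Each of the 4 groups (females or males on either diet) held 4 libraries of poly(A) RNA from powdered whole liver. The makers of the diets differ, so the groups can differ in more than fat. The labels number the replicates without saying that each is a separate animal, so p-values measure the spread between these libraries.

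Liver matrix is scaffold outside the cells: fibrillar collagens in the portal tracts and capsule, sheet-forming collagen in basement membranes, and proteoglycans and elastic fibres between them. Hepatic stellate cells store vitamin A beside the sinusoids. When the liver is injured they can turn into contractile cells that secrete fibrillar collagen, a change in which TGF-β and PDGF signals are known to act. Matrix is also trimmed by metalloproteinases, which are held in check by tissue inhibitors. In whole liver, fewer cells of a type and less RNA per cell cannot be told apart.

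The libraries held 22228115 to 41420589 expected counts each, and the high fat groups were the shallower ones (22682339 to 29200728 in females and 22228115 to 29173327 in males). The hepatocyte transcripts Alb, Apoa1, Ttr, Cps1, Fgb and Trf together made up 72062 to 132401 CPM (counts relative to the scaled library size). Their sum was 117507 to 132401 CPM in normal diet and 97019 to 114221 in high fat females, and 95140 to 112089 and 72062 to 85853 in males, so it was lower on high fat diet without overlap in both sexes. Alb made up most of the mean sum in each group, at 90610 and 71842 CPM in females and 68674 and 48465 in males (normal and high fat diet). Of the 6 genes, 3 in females and 1 in males had a log2 difference above 0, with medians of 0.015 and -0.248. Cps1 was called lower with diet in females and Alb in males (1 of 6 each, against 5.76% and 5.36% of all genes). Several libraries stood apart for the 36 genes. Replicate 4 of the high fat males had the highest CPM of its group for 28 of them, and replicate 2 of the normal diet males for 22. Replicate 1 of the normal diet males was lowest for 22, and replicate 3 of the normal diet females was highest for 11 of the 13 collagens. Replicate 1 of the high fat females was highest for 20 of the 36 genes and lay farthest from its group over all genes, with a median absolute log2 difference of 0.251 to 0.274 to the other 3. Replicates 2 and 3 of the high fat males were unusually close, with a difference of 0.098 against 0.132 to 0.274 for the other 23 pairs of libraries within groups. Counts without these libraries are given where they change a result.

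Col4a1 and Col4a2, the chains of basement membrane collagen, start head to head on opposite strands, and the sequence they share is shown because it bears on how their counts can be read. In RefSeq on build GRCm38.p6 the Col4a2 transcript starts at base 11312805 of chromosome 8 on the forward strand and the Col4a1 transcript at base 11312826 on the reverse strand. Capitals mark the 22 bases that both first exons share, on the forward strand at chr8:11312801-11312830.
Col4a1 and Col4a2: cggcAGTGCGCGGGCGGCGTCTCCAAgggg
Whether the authors' counting used strand is not given in the sources used here, so reads over these bases cannot be assigned to a chain for certain. By the GENCODE M21 annotation, exons of 13 of the 36 genes overlap another gene and 12 of these overlaps include the opposite strand, among them Timp3 with Syn3 and Tagln with Pcsk7. Their counts carry that uncertainty.

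Promoters were in the RefSeq table for 24 of the 36 genes. The 250 bases upstream are shown for Mmp14, a membrane-bound metalloproteinase, and Tgfb1, the main cytokine of stellate cell activation, because both changed with diet in females and hold matches to a searched motif. Mmp14 lies on the forward strand at chr14:54431348-54431597 and Tgfb1 on the forward strand at chr7:25686752-25687001 (GRCm38.p6). The Mmp14 promoter held both motifs named next and the Tgfb1 promoter only the second. Capitals mark CCAAT (read as ATTGG on the other strand) and GGGCGG (read as CCGCCC on the other strand).
Mmp14: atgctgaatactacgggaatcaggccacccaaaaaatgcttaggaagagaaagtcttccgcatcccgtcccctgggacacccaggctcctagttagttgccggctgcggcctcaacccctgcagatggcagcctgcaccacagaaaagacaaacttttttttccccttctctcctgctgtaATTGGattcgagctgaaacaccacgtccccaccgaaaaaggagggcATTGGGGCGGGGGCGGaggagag
Tgfb1: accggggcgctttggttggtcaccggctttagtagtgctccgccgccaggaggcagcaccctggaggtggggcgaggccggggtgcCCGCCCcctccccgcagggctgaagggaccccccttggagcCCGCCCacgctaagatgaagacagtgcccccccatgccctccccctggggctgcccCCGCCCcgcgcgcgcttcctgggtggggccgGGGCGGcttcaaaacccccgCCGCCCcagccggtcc
In Mmp14 a CCAAT match and a pair of GGGCGG matches run into each other near the start. The 24 genes have 26 promoters in the table, and shares are per promoter. GGGCGG was present on either strand in the 250 bases before the start of 15 of the 26 promoters (57.7%) and of 32.7% of all 32851 promoters. CCAAT was present in 10 of the 26 (38.5%) and in 33.8% of all. TATAAA was found in 2 of the 26, those of Col3a1 and Vim, against 12.4% of all, and TGANTCA in 1, that of Col6a1, against 6.75% of all. These matches describe letters, not binding.

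Levels can be compared between genes in TPM, the authors' per-length unit. Dcn (decorin, a small proteoglycan that binds collagen fibrils) was the most abundant with a mean of 162 TPM over the 16 libraries, 34.5% of the summed TPM of the 36. Col18a1, whose collagen is made by hepatocytes as well as vessels, followed with 111 TPM, then Bgn (biglycan) with 42.4 and Sparc with 29.2. These 4 genes carried 73.4% of the sum. A mean of 10 TPM or more was reached by 8 genes, 18 lay between 1 and 10, and 10 lay under 1 TPM, the lowest being Lox at 0.156, Fbn1 at 0.282 and Eln at 0.304 TPM. The 5 fibrillar chains together reached 5.90 to 11.3 TPM in normal diet females, 10.5 to 22.6 in high fat females, 6.26 to 14.1 in normal diet males and 13.4 to 32.8 in high fat males. These sums therefore overlapped between diets within each sex, and no test was made of them.

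**Figure D1:**
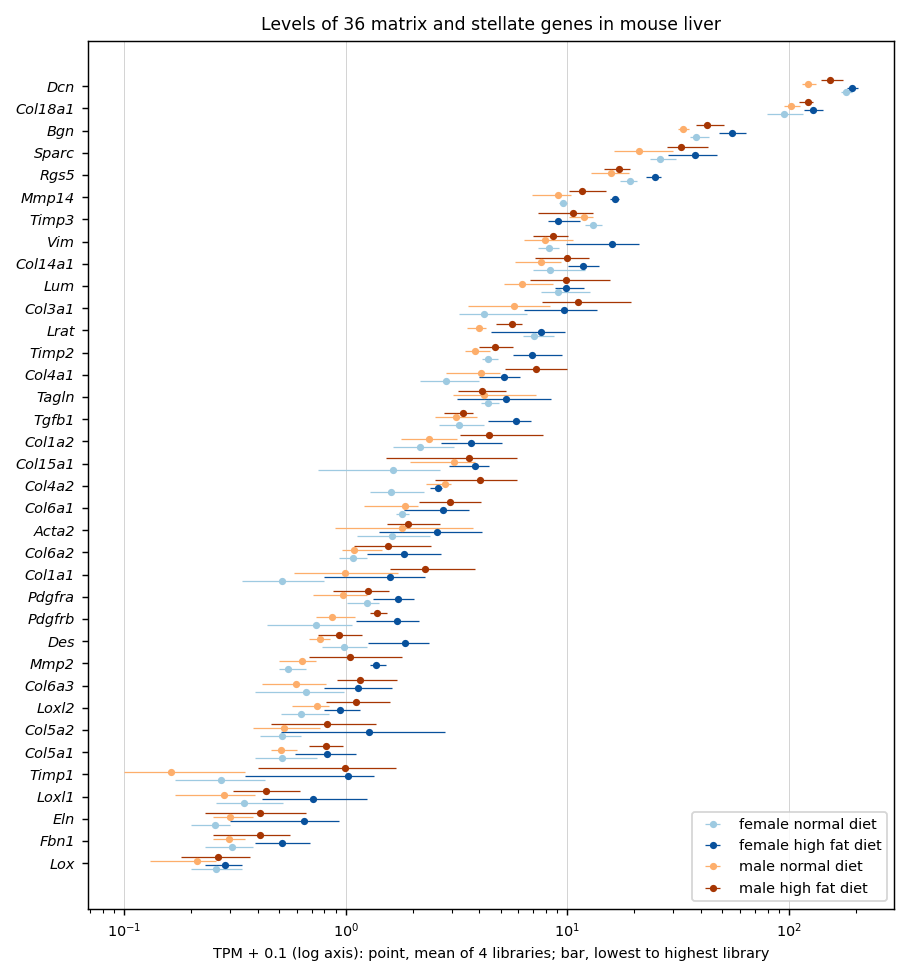
TPM + 0.1 of the 36 genes on a log axis, with the mean of 4 libraries as a point and the lowest to highest library as a bar, 1 colour for each group. Dcn and Col18a1 stand at the top with means of 162 and 111 TPM, and Lox at the bottom with 0.156 TPM.

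High fat feeding in females went with higher RNA of the matrix proteases Mmp2 and Mmp14, of Tgfb1 and Pdgfrb, of the filament genes Des and Vim, and of Col1a1 and elastin, and with lower RNA of the inhibitor Timp3. In edgeR's quasi-likelihood test 9 of the 36 genes were called (adjusted p under 0.05), or 25.0% against 11.5% of all genes tested. Of these, 8 were higher (5.74% of all genes) and 1 lower (5.76% of all genes). The median log2 fold change of the 36 genes was 0.55, where that of all genes was 0.00, and 31 of the 36 had a value above 0 (50.2% of all genes). The libraries of the diets did not overlap for 7 genes that were higher (8.71% of all genes) and 1 that was lower (9.55% of all genes). The count of calls was 5 without any 1 of normal diet replicates 1, 2 and 4 or high fat replicates 1 and 4. The share of all genes called fell as well, to 6.77%, 7.03%, 7.11%, 8.81% and 6.29% in these fits. Over all 26 alternatives the calls of Mmp2, Mmp14, Timp3 and Pdgfrb held throughout and that of Tgfb1 in 25, while Col1a1 kept its call in 19, Des in 19, Vim in 18 and Eln in 17 of 25.

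Among the fibrillar collagens, Col1a1 (the main chain of type I collagen) stood at 1.67, 1.29, 3.26 and 2.00 CPM in normal diet females and at 9.33, 3.94, 3.14 and 8.48 CPM on high fat diet. Replicates 1 and 4 of the high fat group were far above all normal diet libraries, while replicate 3 fell inside their range. Its log2 fold change was 1.61 ± 0.45 (SE; adjusted p = 0.0318). Leaving out any of 5 libraries (normal diet replicates 1, 2 and 4, high fat replicates 1 and 4) ended the call, with adjusted p between 0.0759 and 0.0917. Col3a1, the type III chain, read 16.4, 17.4, 28 and 14.7 CPM on normal diet and 46.3, 27.3, 26.2 and 51.1 on high fat diet. The same replicates, 1 and 4, were high, but with a log2 difference of 0.98 ± 0.34 it was not called (adjusted p = 0.0758). Col1a2, Col5a1 and Col5a2 had log2 differences of 0.55, 0.56 and 1.26 and were not called either; replicate 1 alone held Col5a2 at 13.0 CPM against 1.95 to 4.79 in the other high fat libraries.

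None of the 8 other collagens was called in females by edgeR (5 had an unadjusted p under 0.05, as did 27.2% of all genes, and DESeq2 called Col15a1 and Col4a1), although all 8 had log2 differences above 0, from 0.20 in Col18a1 to 1.15 in Col15a1. Col4a1 read 12.4, 12.3, 20.1 and 16 CPM on normal diet and 29.0, 22.1, 19.6 and 25.9 on high fat diet, a log2 difference of 0.67 ± 0.22 (adjusted p = 0.0574). Its partner Col4a2 read 7.49, 6.93, 10.9 and 7.42 CPM and then 11.9, 11.8, 11.2 and 11.6. The diets did not overlap for Col4a2, yet its log2 difference of 0.51 ± 0.22 missed the threshold (adjusted p = 0.133). Col15a1, a collagen at the border of basement membranes, was at 1.96 to 5.64 CPM on normal diet and 7.57 to 9.65 on high fat diet, also without overlap (adjusted p = 0.0789).

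Elastin was the structural gene called beside Col1a1. Eln read 0.334, 0.674, 0.403 and 0.608 CPM on normal diet and 2.21, 0.926, 0.561 and 2.12 CPM on high fat diet, again with replicates 1 and 4 high. Its log2 fold change was 1.5 ± 0.46 (adjusted p = 0.0402), and the call was lost without any 1 of 6 libraries, namely each normal diet replicate and high fat replicates 1 and 4 (adjusted p 0.0566 to 0.128). The proteoglycans Dcn, Lum and Bgn had log2 differences of -0.15, -0.14 and 0.30 and were not called. For Bgn the diets did not overlap, at 67.9 to 75.0 CPM on normal and 79.1 to 103 on high fat diet. Fbn1, also not called, was just apart, at 1.14 to 2.20 CPM on normal and 2.21 to 4.26 on high fat diet. Of the cross-linking enzymes, Lox read 0.408, 0.950, 0.476 and 0.583 CPM and on high fat diet 0.574, 0.397, 0.785 and 0.589, which overlap throughout (log2 difference -0.06 ± 0.44, adjusted p = 0.952). Loxl1 and Loxl2, with 1.05 and 0.46, were not called.

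Genes of matrix turnover were called in both directions in females. Mmp2, the gelatinase that digests denatured and basement membrane collagen, rose from 1.04, 1.47, 0.951 and 0.988 CPM to 2.99, 2.51, 2.62 and 2.55 CPM. All 4 high fat libraries exceeded all 4 on normal diet, and the log2 fold change was 1.26 ± 0.29 (adjusted p = 0.00939). Mmp14, the protease that activates proMMP2 at the cell surface, rose from 20.4, 21.4, 17.3 and 18.5 CPM to 29.3, 26.6, 30.9 and 26.6 CPM. Here too the groups were apart, with a log2 fold change of 0.55 ± 0.13 (adjusted p = 0.0117). Timp3, the tissue inhibitor that binds to the matrix itself, went the other way, from 49.4, 52.3, 51.5 and 52.3 CPM to 27.2, 27.5, 29.2 and 36.2 CPM. No high fat library reached the lowest normal diet library, and Timp3 fell by 0.78 on the log2 scale (SE 0.14, adjusted p = 0.00206). Timp2 had a log2 difference of 0.14 and was not called, and Timp1 was nearly absent, with 1, 2, 2 and 6 counts on normal diet and 18, 3, 12 and 11 on high fat diet (adjusted p = 0.0724).

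Of the signalling genes, Pdgfrb, the PDGF receptor of stellate cells and pericytes, read 2.41, 1.59, 3.95 and 3.14 CPM on normal diet and 7.52, 3.74, 5.16 and 7.22 on high fat diet. Only high fat replicate 2 fell within the normal diet range, and the log2 fold change was 1.09 ± 0.25 (adjusted p = 0.00916). Tgfb1 read 4.45, 5.0, 6.33 and 5.04 CPM on normal diet and 9.58, 8.04, 6.36 and 8.40 on high fat diet. The groups were just apart, at 6.33 against 6.36 CPM, with a log2 fold change of 0.64 ± 0.16 (adjusted p = 0.0158; 0.0501 without normal diet replicate 1). Pdgfra was not called (log2 difference 0.24).

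Intermediate filaments rose while contractile genes were not called. Des (desmin, a stellate and muscle filament) read 2.37, 1.99, 2.56 and 1.65 CPM on normal diet and 4.71, 3.14, 2.51 and 4.04 on high fat diet, a log2 fold change of 0.76 ± 0.22 (adjusted p = 0.032). Vim (vimentin, the filament of mesenchymal cells and leukocytes) read 16.2, 14.1, 13.1 and 12.1 CPM and then 30.2, 13.8, 17.4 and 28.2, a log2 fold change of 0.69 ± 0.21 (adjusted p = 0.0377). In both genes high fat replicates 1 and 4 were high and another overlapped the normal diet range. The Des call was lost without any of normal diet replicates 1, 2 and 4 or high fat replicates 1 and 4 (adjusted p 0.0502 to 0.102), and the Vim call without any of normal diet replicates 2, 3 and 4 or the same high fat replicates (0.0751 to 0.127). Acta2, the smooth muscle actin that marks activated stellate cells, read 1.67, 2.33, 3.26 and 2.03 CPM on normal diet and 5.29, 2.98, 1.79 and 2.94 on high fat diet. The groups overlapped and the log2 difference was 0.49 ± 0.40 (adjusted p = 0.455). Lrat, the enzyme that stores retinol as ester, was at 29.4, 30.4, 35.8 and 30.3 CPM and then at 17.0, 29.7, 32.6 and 35.0, with only high fat replicate 1 low (log2 difference -0.14 ± 0.16, adjusted p = 0.613). Tagln and Rgs5 had log2 differences of 0.03 and 0.12.

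**Figure D2:**
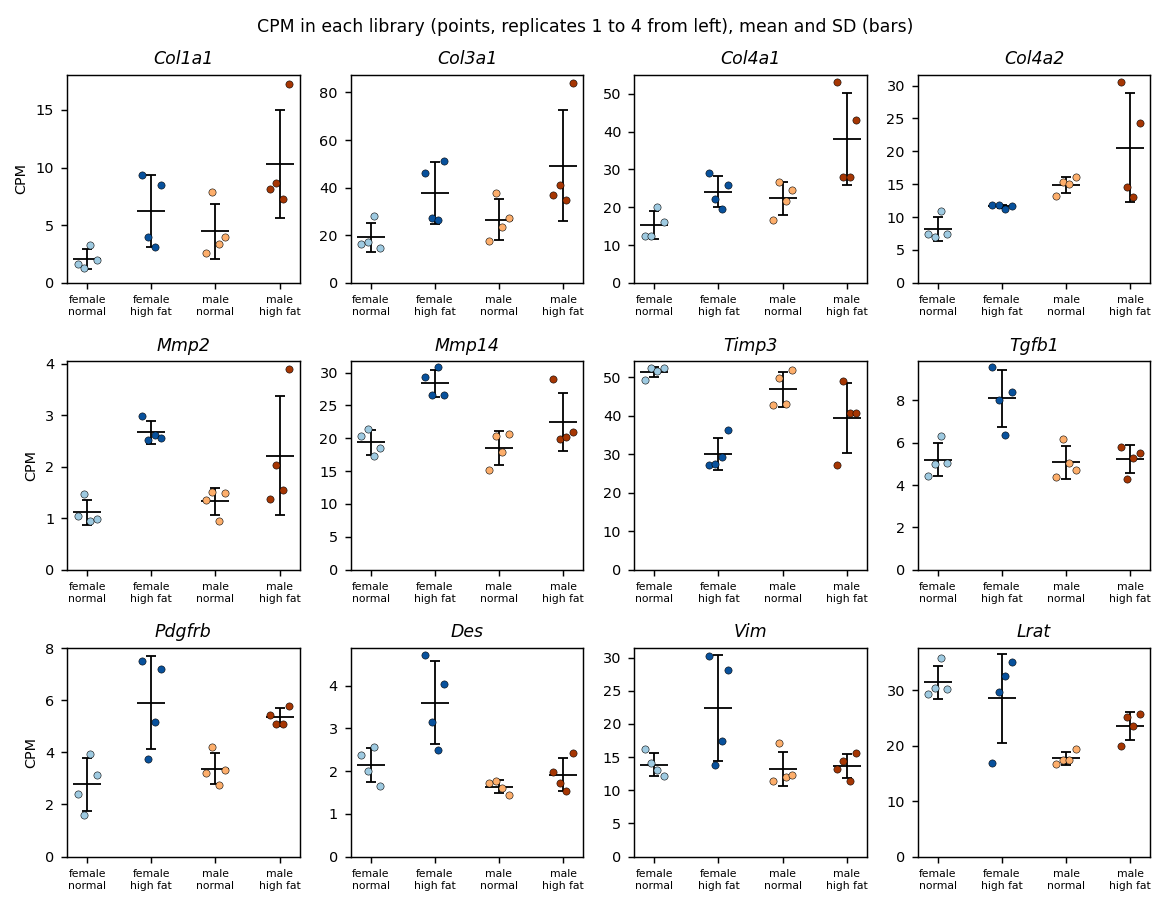
CPM of 12 of the genes in each library, in the order of replicates 1 to 4 from left to right, with the mean and SD of each group as bars. In females Mmp2, Mmp14, Tgfb1, Timp3 and Col4a2, which was not called, show no overlap between diets. Col1a1, Des and Vim are raised mainly in high fat replicates 1 and 4.

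In males the 5 calls lay in collagens, Sparc and Timp1, and none was a gene called in females. That is 13.9% of the 36 genes against 11.4% of all genes called, and all 5 were higher (6.03% of all genes). The median log2 fold change was 0.46, against 0.01 for all genes, and 34 of the 36 genes had a value above 0 (51.2% of all genes). Libraries of the diets did not overlap for 11 genes, all higher on high fat diet (30.6%, against 9.32% of all genes that were higher and 9.13% that were lower): Col1a2, Col5a1, Col4a1, Col6a1, Col6a3, Dcn, Bgn, Timp1, Timp2, Pdgfrb and Lrat. For Timp1 the gap comes from library scaling alone, since normal and high fat replicate 2 held 4 counts each. The count of calls was fragile. It was 0 without normal diet replicate 4, where 8.65% of all genes were still called. There 19 of the 36 and 25.3% of all genes had an unadjusted p under 0.05. The count was also 0 without high fat replicate 4 (7.67% of all genes called), where 9 of the 36 and 23.4% of all genes had such a p. Without normal diet replicate 1 or 3 the count was 1 (8.24% and 7.37% of all genes called). Timp1 kept its call in 21 of 24 alternatives, Col4a1 in 17 of 26, Col5a1 and Col6a3 in 12 and Sparc in 10.

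Type V and type VI collagen chains were called in males. Col5a1, a chain that nucleates fibrils, read 2.80, 3.48, 2.89 and 2.71 CPM on normal diet and 3.98, 5.02, 4.84 and 5.84 on high fat diet, a log2 fold change of 0.72 ± 0.23 (adjusted p = 0.0479). Col6a3, a chain of the beaded filaments around cells, read 2.68, 5.37, 3.85 and 3.63 CPM and then 7.43, 6.04, 6.32 and 11.6, a log2 fold change of 1.00 ± 0.31 (adjusted p = 0.0429). Both genes were higher in every high fat library than in any on normal diet. Leaving out 1 library ended the Col5a1 call in 7 of 8 cases, all but high fat replicate 1 (adjusted p 0.0567 to 0.130), and the Col6a3 call in 6 of 8, all but normal and high fat replicate 2 (0.0541 to 0.143). The other chains of type VI, Col6a1 and Col6a2, had log2 differences of 0.61 and 0.45 and were not called.

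Col4a1 rose from 16.7, 26.7, 21.6 and 24.5 CPM to 53.1, 28, 28.1 and 43.0 CPM in males, with replicates 1 and 4 high and the other high fat pair just above the highest normal diet library. The log2 fold change was 0.77 ± 0.22 (adjusted p = 0.0305), lost without any of normal diet replicates 1, 3 and 4 or high fat replicates 1 and 4 (0.0538 to 0.0949). Col4a2 read 13.1, 15.3, 15.1 and 16 CPM and then 30.5, 14.5, 13.0 and 24.3. Its high fat libraries split around the normal diet range, and it was not called (log2 difference 0.46 ± 0.21, adjusted p = 0.162). Col1a1 read 2.59, 7.88, 3.37 and 3.98 CPM and then 8.14, 8.66, 7.25 and 17.3, a log2 difference of 1.19 ± 0.42 (adjusted p = 0.0824) that was 0.83 without high fat replicate 4. Col3a1 read 17.5, 37.8, 23.5 and 27.4 CPM and then 36.9, 41, 34.9 and 84.0, a log2 difference of 0.89 ± 0.34 (adjusted p = 0.106) that was 0.50 without that replicate. In both, normal diet replicate 2 reached into the high fat range.

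Sparc, a secreted collagen-binding glycoprotein, read 29.1, 48.3, 29.0 and 32.3 CPM on normal diet and 45.4, 48.2, 45.4 and 65.9 on high fat diet, a log2 fold change of 0.56 ± 0.18 (adjusted p = 0.0477). Normal diet replicate 2 overlapped the high fat group, and the call was lost without any of normal diet replicates 1, 3 and 4 or high fat replicates 2, 3 and 4 (0.0633 to 0.160). Timp1, the inhibitor most often tied to fibrosis, had 0, 4, 0 and 0 counts on normal diet and 11, 4, 10 and 16 counts on high fat diet. It was called (adjusted p = 0.0168) from 4 counts in all against 41, so no fold is given, and the call was lost without normal diet or high fat replicate 4 (0.0533 and 0.0575). In these males Mmp2, Mmp14, Timp3 and Pdgfrb were not called, with log2 differences of 0.72, 0.28, -0.25 and 0.65 (adjusted p 0.114, 0.174, 0.257 and 0.0927). Pdgfrb was nevertheless higher in every high fat library, at 5.43, 5.09, 5.09 and 5.80 CPM against 3.21, 4.22, 2.77 and 3.33. Tgfb1, Vim, Des and Acta2 had log2 differences of 0.04, 0.04, 0.23 and 0.01.

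**Figure D3:**
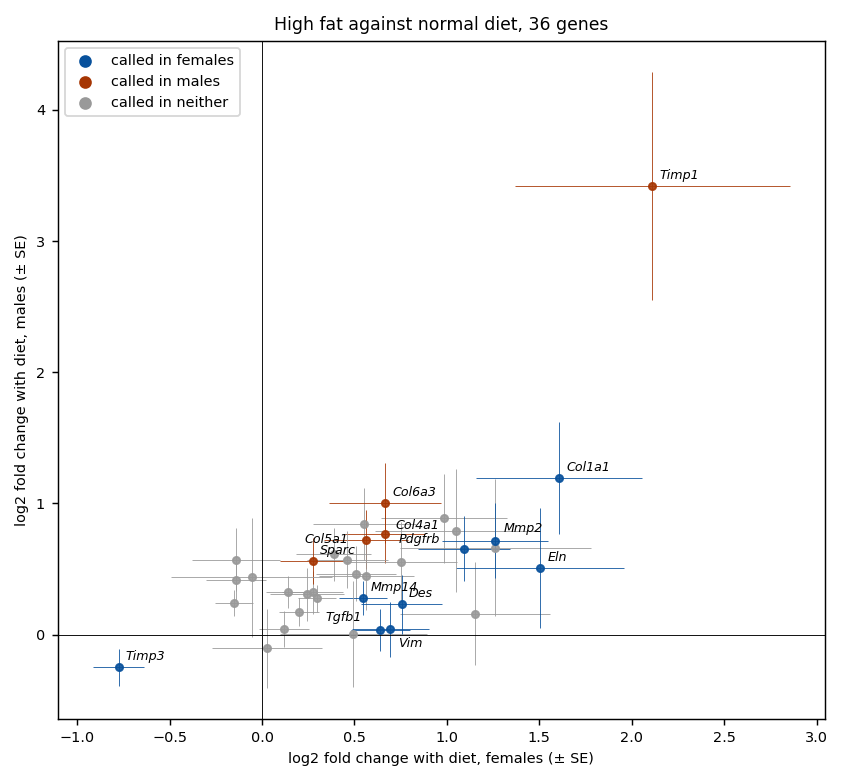
Log2 fold change with high fat diet in females (horizontal) and males (vertical) for the 36 genes, each with its SE, coloured by the sex in which it was called. Most points lie in the upper right, Timp3 lies in the lower left, and Timp1, at the upper right, rests on at most 18 counts in a library.

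The change with diet was above 0 in both sexes for 30 of the 36 genes. None was called in both sexes, but none of the 36 differed in its diet change between the sexes in the interaction test (0.677% of all genes were called, 0.264% higher and 0.413% lower), and 20 of the 36 differences were above 0 against 49.3% of all genes. An unadjusted p under 0.05 was reached by 5, or 13.9%, near the 13.0% of all genes, and DESeq2 and the other alternatives called 0 as well. For these 5 the log2 differences, females minus males, were 0.65 ± 0.29 for Vim, 0.60 ± 0.23 for Tgfb1, -0.56 ± 0.23 for Lrat and -0.53 ± 0.20 for Timp3 (adjusted p 0.35, 0.264, 0.31 and 0.262). Dcn followed with -0.39 ± 0.14 (adjusted p = 0.252). A call in 1 sex is therefore not shown to be specific to it.

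Between the sexes on normal diet, females had more Dcn and Lrat and less Col4a2, 3 of the 36 genes against 15.7% of all genes. Those higher in females were 2 (7.03% of all genes) and lower 1 (8.68% of all genes), and 20 of the 36 had a difference above 0 (49.7% of all genes). The sexes did not overlap for 3 higher genes, Dcn, Timp2 and Lrat (9.86% of all genes), and for 1 lower gene, Col4a2 (12.2% of all genes). Dcn read 239, 252, 205 and 247 CPM in females and 163, 158, 144 and 173 in males, without overlap, a log2 difference (females minus males) of 0.56 ± 0.10 (adjusted p = 0.00133). Lrat read 29.4 to 35.8 CPM in females and 16.7, 17.4, 17.4 and 19.4 in males, also apart, a log2 difference of 0.83 ± 0.16 (adjusted p = 0.0025). Both calls held under all 26 alternatives. Col4a2 stood at 6.93 to 10.9 CPM in females and 13.1 to 16 in males, a log2 difference of -0.87 ± 0.21 (adjusted p = 0.0116; 0.0514 by limma on log2(TPM + 1)).

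On high fat diet 5 of the 36 genes differed by sex, against 20.4% of all genes. They were 3 that were higher in females (8.84% of all genes) and 2 lower (11.6% of all genes), and 22 of the 36 had a difference above 0 (49% of all genes). The sexes did not overlap for 3 higher genes, Tgfb1, Des and Rgs5 (10.3% of all genes), and for 1 lower gene, Col4a2 (12.4% of all genes). Tgfb1 was at 6.36 to 9.58 CPM in females and at 5.80, 4.28, 5.26 and 5.53 in males, a log2 difference of 0.64 ± 0.16 (adjusted p = 0.0102). Des was at 2.51 to 4.71 CPM in females and at 1.97, 1.73, 1.55 and 2.43 in males, a log2 difference of 0.91 ± 0.22 (adjusted p = 0.00799). Neither gene overlapped between the sexes, and both calls held under all alternatives. Vim was higher in females by 0.72 ± 0.21 (adjusted p = 0.0214) although female replicate 2, at 13.8 CPM, lay within the male range of 11.3 to 15.6; without female replicate 1 or 4 or male replicate 3 it was not called (0.057 to 0.0826). Col4a2 was lower in females, 11.2 to 11.9 CPM against 13.0 to 30.5, by a log2 difference of -0.82 ± 0.21 (adjusted p = 0.0121; 0.0516 without male replicate 1). Neither Col4a2 nor Col4a1 was called on the TPM scales or with these groups fitted alone. Col4a1 was lower by -0.66 ± 0.22 (adjusted p = 0.0404), but its groups overlapped and the call was lost without any of female replicates 2, 3 and 4 or male replicates 1 and 4 (0.0682 to 0.163). On high fat diet Dcn and Lrat differed by 0.17 and 0.27 and were not called.

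**Figure D4:**
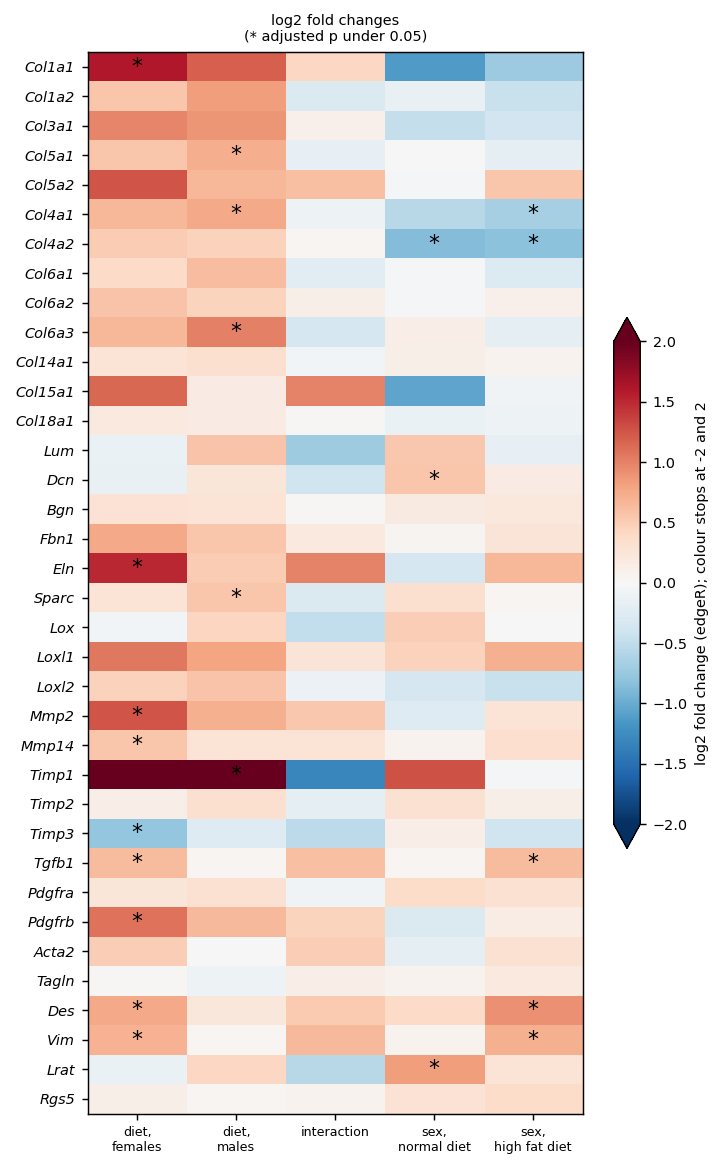
Log2 fold changes of the 36 genes in 5 comparisons, females minus males where sexes are compared, with a star where the adjusted p is under 0.05. The diet columns hold 9 stars in females and 5 in males, in different rows, and the interaction column holds 0.

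Chains that join in 1 collagen molecule can be followed library by library. Deviations of log2(CPM + 0.1) from the group means over 16 libraries were compared for 6 pairs, with permutation tests within groups and Benjamini-Hochberg adjustment over the 6. Col1a1 and Col1a2 moved together with r = 0.879 and rho = 0.835 (permutation p = 0.00041 and 0.00052, adjusted 0.0012 and 0.00156; r = 0.863 without the 2 farthest libraries). For Col4a1 and Col4a2, r was 0.858 and rho 0.894 (permutation p = 0.00041 and 0.00015, adjusted 0.0012 and 0.0009; r = 0.827 without 2). The ratio of the chains' CPM, described without a test, ran from 1.27 to 2.44 over all libraries for Col4a1 to Col4a2. For Col1a1 to Col1a2 it was 0.174 to 0.264 in normal diet and 0.303 to 0.645 in high fat females, without overlap, and 0.320 to 0.586 and 0.513 to 0.631 in males.

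Col6a2 and Col6a3 had r = 0.804 and rho = 0.779 (permutation p = 0.0006 and 0.00153, adjusted 0.0012 and 0.00306; r = 0.702 without 2). Col6a1 was more loosely tied to them: r was 0.660 with Col6a2 and 0.578 with Col6a3 (permutation p = 0.038 and 0.0258, adjusted 0.0456 and 0.0387), and rho was 0.621 and 0.618 (permutation p = 0.0459 and 0.02, adjusted 0.0459 and 0.0269). Without the 2 farthest libraries these r were 0.684 and 0.454. Col5a1 and Col5a2 had r = 0.521 (permutation p = 0.0596, adjusted 0.0596), rho = 0.626 (permutation p = 0.0224, adjusted 0.0269) and r = 0.613 without 2, and its ratio of CPM ran from 0.365 to 2.47. All pairs share the libraries and their cell makeup, whose part in these correlations was not tested. Replicate 4 of the high fat males, for example, was the highest of its group for 9 of the 13 collagens. Chains of different molecules were not compared. The correlations therefore cannot show that partner chains are tied more closely than other collagen chains.

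**Figure D5:**
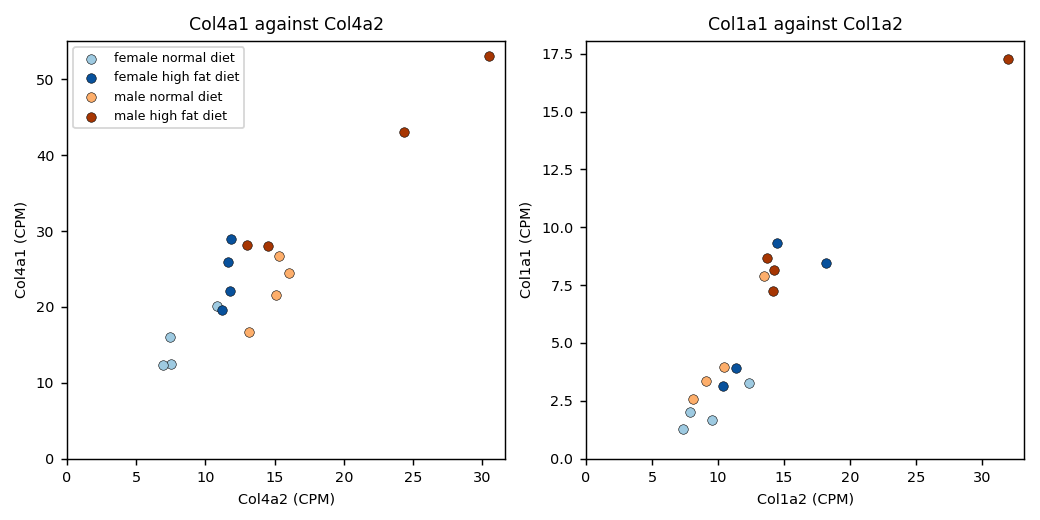
CPM of Col4a1 against Col4a2 (left) and of Col1a1 against Col1a2 (right), 1 point for each of 16 libraries, coloured by group. Within groups the chains rise together, with r = 0.858 for the type IV pair and 0.879 for the type I pair.

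Other matrix genes were taken from 5 lists with 107 genes, 96 of them tested. In females 12 of the 96 were higher and 3 lower on high fat diet (5.74% and 5.76% of all genes), with a median log2 fold change of 0.18. Col5a3, a further type V chain, rose by 1.58 ± 0.28 on the log2 scale (adjusted p = 0.00183), from 1.35 ± 0.255 to 4.06 ± 1.27 CPM (SD, n = 4). Thbs2, a matrix protein that binds growth factors, rose by 1.04 ± 0.21, and Smad3, which carries the TGF-β signal to the nucleus, by 0.74 ± 0.16 (adjusted p 0.00394 and 0.00577). Of the 3 lower genes, Ccn2, a secreted target of TGF-β and YAP, fell by 1.64 on the log2 scale, P4ha2, a collagen prolyl hydroxylase subunit, by 0.93, and Tgfbr1, a TGF-β receptor, by 0.58 (adjusted p 0.00204, 0.00396 and 0.0188).

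In males 6 of the 96 were higher and 3 lower (6.03% and 5.36% of all genes), with a median of 0.15. Prelp, a proteoglycan that anchors basement membrane, rose by 0.57, the TGF-β-induced protein gene Tgfbi by 0.49 and the macrophage elastase Mmp12 by 4.20 on the log2 scale (adjusted p 0.00335, 0.00354 and 0.00453). P4ha1, another collagen prolyl hydroxylase subunit, fell by 1.95 (adjusted p = 1.57e-06), Smad3 by 0.60 and the basement membrane protein gene Nid2 by 0.96. The interaction test called 3 of the 96 genes (0.677% of all genes). P4ha1 differed by 1.48 ± 0.23, Smad3 by 1.34 ± 0.22 and Col5a3 by 1.95 ± 0.37, females minus males (adjusted p 0.00582, 0.00612 and 0.0167). Smad3 stood at 6.38 ± 0.852 and 10.7 ± 0.766 CPM in females and at 13.8 ± 3.52 and 9.10 ± 0.711 in males (SD, n = 4, normal and high fat diet). In the same order P4ha1 stood at 19.0 ± 2.52 and 13.7 ± 1.43 CPM in females and 34.8 ± 7.39 and 9.05 ± 1.88 in males. Its mean was thus lower on high fat diet in both sexes, less so in females. Col5a3 stood at 13.9 ± 4.76 and 10.7 ± 2.54 CPM in males. It was called lower in females than in males on both diets (log2 difference -3.35 on normal and -1.40 on high fat diet).

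Markers of cell types were summed beside these genes. Stellate markers (12 genes, all detected) summed to 277 to 299 CPM in normal diet and 310 to 344 in high fat females, and to 217 to 355 and 356 to 1240 in males. Most of that rise was Steap4, at 219 to 1113 CPM in high fat males. Without Steap4, left out after its values were seen, the sums were 176 to 180 and 161 to 202 CPM in females and 109 to 135 and 128 to 159 in males. Of the 12, only Ngfr was called higher on high fat diet in females (1 of 12, against 5.74% of all genes). In males Ngfr and Steap4 were called (2 of 12, against 6.03%).

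Kupffer cell markers (8 genes) were summed in the same way: their sum was 270 to 391 CPM on normal and 448 to 652 on high fat diet in females, against 252 to 393 and 224 to 447 in males. Cd68, Csf1r and Cd5l were called higher with diet in females (3 of 8, against 5.74% of all genes) and Cd68 in males (1 of 8, against 6.03%). On high fat diet 5 of the 8 were higher in females than males (8.84% of all genes), and the interaction test called 0 of the 8, with 3 at an unadjusted p under 0.05. Pancreatic acinar markers (6 genes, 2 of them tested) summed to 4.65 to 11.1 and 7.97 to 11.3 CPM in females and to 5.14 to 14.7 and 12.7 to 36.4 in males. Cela2a was called higher with diet in males (1 of 2 tested, against 6.03% of all genes). Markers of lipid-associated macrophages (6 genes) summed to 59.7 to 76.8 and 60.8 to 102 CPM in females and 50.2 to 65.7 and 61.5 to 105 in males. Most of these sums was Spp1, at 39.7 to 82.6 CPM over all libraries, so they say little about the other 5. Called higher with diet were Gpnmb, Itgax and Mmp12 in females (3 of 6, against 5.74% of all genes). In males they were Gpnmb, Mmp12 and Trem2 (3 of 6, against 6.03%), and Cd9 was lower (1 of 6, against 5.36%). None of 11 sinusoidal endothelial and 6 tested portal fibroblast markers was called with diet by edgeR. Its unadjusted p was under 0.05 for 2 and 1 of the endothelial and 1 and 1 of the fibroblast markers in females and males. Of all genes, 27.2% and 27.5% had such a p. DESeq2 called Entpd2, a fibroblast marker, in males. The fibroblast markers (9 genes) summed to 11.5 to 16.5 and 13.2 to 24.5 CPM in females and to 7.13 to 14.0 and 9.95 to 16.1 in males. The highest sum lay in replicate 2 of the normal diet females and replicate 1 of the high fat females, followed there by replicate 4 at 18.5 CPM. In males it lay in normal diet replicate 2 and high fat replicate 4. Of 9 tested smooth muscle markers 1, Tpm2, was called higher by edgeR in males (6.03% of all genes). No marker was at 0 in every library, and the part of any of these cells in the results above was not tested.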

How the data were processed

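The authors deposited RSEM expected counts and TPM for the 16 libraries; STAR, RSEM and the build GRCm39 are named in the submitters' processing notes, while versions and the strand setting are not given in the sources used here. Of the deposited expected count entries, 4.89% were not whole, and all were rounded. The deposited TPM values served for levels between genes and for checks. The 36 genes, the other lists and the tests were chosen with earlier results of these data known. Genes were filtered with filterByExpr of edgeR 4.0.16 (R 4.3.3), scaled by TMM and tested with its robust quasi-likelihood test, with 1 mean for each of 4 groups over 16 libraries and Benjamini-Hochberg adjustment over 14781 genes; a gene is called at adjusted p under 0.05. CPM are relative to the TMM-scaled size. The tests are two-sided. Standard errors were taken from each log2 fold change and its F statistic (size over root F). On simulated data for diet in females (14530 genes), 67.3% of 2-fold and 17% of 1.5-fold changes were recovered and 3.49% of calls were false. Library values are given for genes called in any comparison and for 10 genes fixed by name (Col1a1, Col3a1, Col4a1, Timp1, Lox, Acta2, Des, Lrat, Pdgfrb, Tgfb1), but not for every gene in every group. From the other matrix lists, the called genes with the smallest p were named, up to 3 for each direction and diet comparison, and up to 3 for the interaction. Alternatives were RLE and upper quartile scaling, no filter, a filter of 1 CPM in 4 libraries, DESeq2 1.42.0, limma 3.58.1 on log2(TPM + 1) and log2(TPM + 0.1), the compared groups alone, a replicate block, high fat male replicates 2 and 3 averaged, and each library left out.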

Additional observations from a re-analysis of the deposited data

Results flagged for a closer look

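In 10 of 80 groups of 4 libraries (20 genes named with library values), 1 library lay far from the other 3 (gap over range above Dixon's 95% critical value). That value assumes independent, normally spread values. The genes share the same libraries and their CPM were not put on a log scale, so the 10 groups cannot be set against a number given by chance. High fat male replicate 4 was high for Col1a1 (17.3 CPM against 7.25 to 8.66), Col3a1 (84.0 against 34.9 to 41) and Sparc (65.9 against 45.4 to 48.2). Normal diet male replicate 2 was high for Sparc (48.3 CPM against 29.0 to 32.3), Vim (17.1 against 11.4 to 12.3) and Timp1 (0.114 against 0, from 4 counts). Normal diet female replicate 3 was high for Col4a2 (10.9 CPM against 6.93 to 7.49) and Lrat (35.8 against 29.4 to 30.4). Normal diet female replicate 2 was high for Mmp2 (1.47 CPM against 0.951 to 1.04), and high fat male replicate 1 for Mmp14 (29.0 CPM against 19.9 to 20.9).

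The change with diet differed between the sexes, by edgeR's interaction test, for 3 other matrix genes: P4ha1 (log2 difference 1.48, females minus males), Smad3 (1.34) and Col5a3 (1.95). The mean of P4ha1 was lower on high fat diet in both sexes, and Col5a3 was lower in females than in males on both diets.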

How the results depend on the processing

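No call among the named genes turned its direction under 26 alternatives; over these genes and comparisons 2402 alternative values kept their side of the threshold, 114 lost it and 46 gained it. In what follows, percentages are shares of all genes called in the same fit, for DESeq2 out of 30041 genes. These include genes too low for the filter of the main fit, which all 36 genes passed. The DESeq2 shares are therefore not comparable with those out of 14781 genes. Calls among the 36 genes for diet in females (9, 11.5%) became 14 with DESeq2 (7.59%), 16 with log2(TPM + 1) (19.8%) and 17 with log2(TPM + 0.1) (18.7%). With 1 library left out they were 5 to 12 (6.29% to 12.4%), and 5 without normal diet replicate 1, 2 or 4 or high fat replicate 1 or 4. For diet in males (5, 11.4%) they became 3 with RLE scaling (11.5%), 8 with DESeq2 (7.36%) and 3 with log2(TPM + 0.1) (9.42%). They were 2 with high fat replicates 2 and 3 averaged (7.84%) and 0 to 7 with 1 library left out (7.37% to 13.6%). For sex on normal diet (3, 15.7%) they became 5 with DESeq2 (9.43%), 2 higher and 3 lower in females. With 1 library left out they were 3 to 4 (8.77% to 18.4%). For sex on high fat diet (3 higher and 2 lower, 20.4%) they became 8 higher and 0 lower with log2(TPM + 1) (25.1%) and the same with log2(TPM + 0.1) (24.0%). They were 3 higher and 0 lower with only these groups fitted (13.8%), and 4 to 7 with 1 library left out (13.1% to 20.3%). The interaction stayed at 0 (0.338% to 1.17% over the settings). On log2(TPM + 1) and log2(TPM + 0.1) the median of all genes moved from that of the counts by 0.147 and 0.220 for diet in females, 0.113 and 0.152 for the interaction and 0.113 and 0.163 for sex on high fat diet. Of all genes, 2644 and 2487 were then called higher and 282 and 276 lower with diet in females (848 and 852 by counts), and 2957 and 2808 higher and 753 and 737 lower in females on high fat diet (1306 and 1716 by counts), so the counts of members include that shift; other causes were not tested. With the replicate number as a block, the calls were 6 for diet in females (12.6% of all genes) and 1 for diet in males (13.4% of all genes). They were 0 for the interaction (0.683%), 3 for sex on normal diet (18.2%) and 6 for sex on high fat diet (23.3%). Same-numbered libraries deviated together little, in 24 correlations from -0.159 to 0.18 (median 0.044). The 72 pairs with different numbers had a median of -0.018, and 5 of 16 libraries correlated best with their own number. These correlations cannot show whether the numbers mark a pairing or a batch. Depth limits Timp1, Lox, Eln and Loxl1, whose lowest libraries held 0, 3, 9 and 5 counts.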
